A study of Mus musculus with 29 samples.

Results

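The neural Sox family comprised 10 genes, Sox1, Sox2, Sox3, Sox4, Sox5, Sox6, Sox9, Sox10, Sox11 and Sox21, chosen by name out of 25239 genes in the count tables. The choice was made with earlier results of these data known. All 10 passed the filter on low counts, and 15383 genes in all were tested. They were followed through 8 poly(A) RNA-seq libraries of E11.5 mouse embryos, which fell into 4 groups of 2: wild-type forebrain, forebrain with the hs267-853 knockout, wild-type midbrain, and midbrain with the hs654 knockout. Both knockouts are of enhancers, so no targeted transcript checks the genotype labels, and it was not established whether the label hs267-853 stands for 1 deleted enhancer or more. Each library was a pool of several dissected tissues of one genotype, whose strain and sex are not given, so a value describes a mixture of progenitors, neurons and the mesenchyme, vessels and blood around them. The labels do not say that the 2 pools of a group came from separate litters, and the p-values measure only the spread between pools. Another 21 samples, of enhancer-capture Hi-C, were not analysed here.

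Sox proteins are transcription factors that bind DNA through an HMG box, and they are sorted into groups by the sequence of that box. The SoxB1 factors Sox1, Sox2 and Sox3 keep neural progenitors dividing and undifferentiated, and the SoxB2 factor Sox21 counteracts them. SoxC factors, Sox4 and Sox11, act in cells that leave the cell cycle and become neurons. SoxD factors, Sox5 and Sox6, carry no activation domain of their own and modify the action of other Sox proteins, and in the forebrain they divide dorsal from ventral progenitors and later specify neuron types. SoxE factors are linked to glia and neural crest: Sox9 is made by radial progenitors and by cartilage, and Sox10 by neural crest, Schwann cell precursors and later oligodendrocytes.

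Library totals ran from 9051632 to 18024406 counts over genes, and a count of 0 allows a level of 3 counts, which is 0.170 to 0.328 CPM (the usual depth-scaled count, here relative to each library's effective size) and covers counting error only. Tissue separated along the first principal component, with 72.1% of the variance. All 10 forebrain markers were higher in wild-type forebrain, and 8 of 10 midbrain and isthmus markers were lower there, with En2 at 0 counts in all 4 forebrain libraries. Against its list, Meis2 was higher in wild-type forebrain (log2 difference 0.54) and Fgf8 did not pass (0.55), and both were higher in forebrain in the knockout libraries. Forebrain knockout replicate 1 stood apart on the second component, at -33.7 against -1.66 to 18.3 in the other libraries, and it held the highest forebrain value for 7 of the 10 Sox genes, so the knockout results that it moves most are also given without it.

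Wild-type forebrain and midbrain differed most in the SoxD genes. Sox6 was 3.33-fold and Sox5 2.35-fold higher in forebrain, Sox9 was 1.68-fold higher, and the SoxB1 genes were 1.29-fold to 1.48-fold higher. Sox4 was 1.18-fold higher in midbrain, and Sox11, Sox21 and Sox10 did not pass the test. With the threshold at 0.05 on the adjusted p (edgeR's quasi-likelihood test, Benjamini-Hochberg over all genes tested), 7 of the 10 genes were called, 6 higher and 1 lower in forebrain, against 29.6% of all genes tested (14.3% higher and 15.3% lower). The pools of the 2 tissues did not overlap for any of the 10 genes, 6 higher and 4 lower in forebrain, against 65.9% of all genes tested (33.2% higher and 32.7% lower). The median log2 difference of the 10 genes, forebrain over midbrain, was 0.46, and over all genes it was 0.0012. Because the samples are bulk tissue, fewer cells of a type and less RNA per cell cannot be told apart in any of these values.

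**Figure D1:**
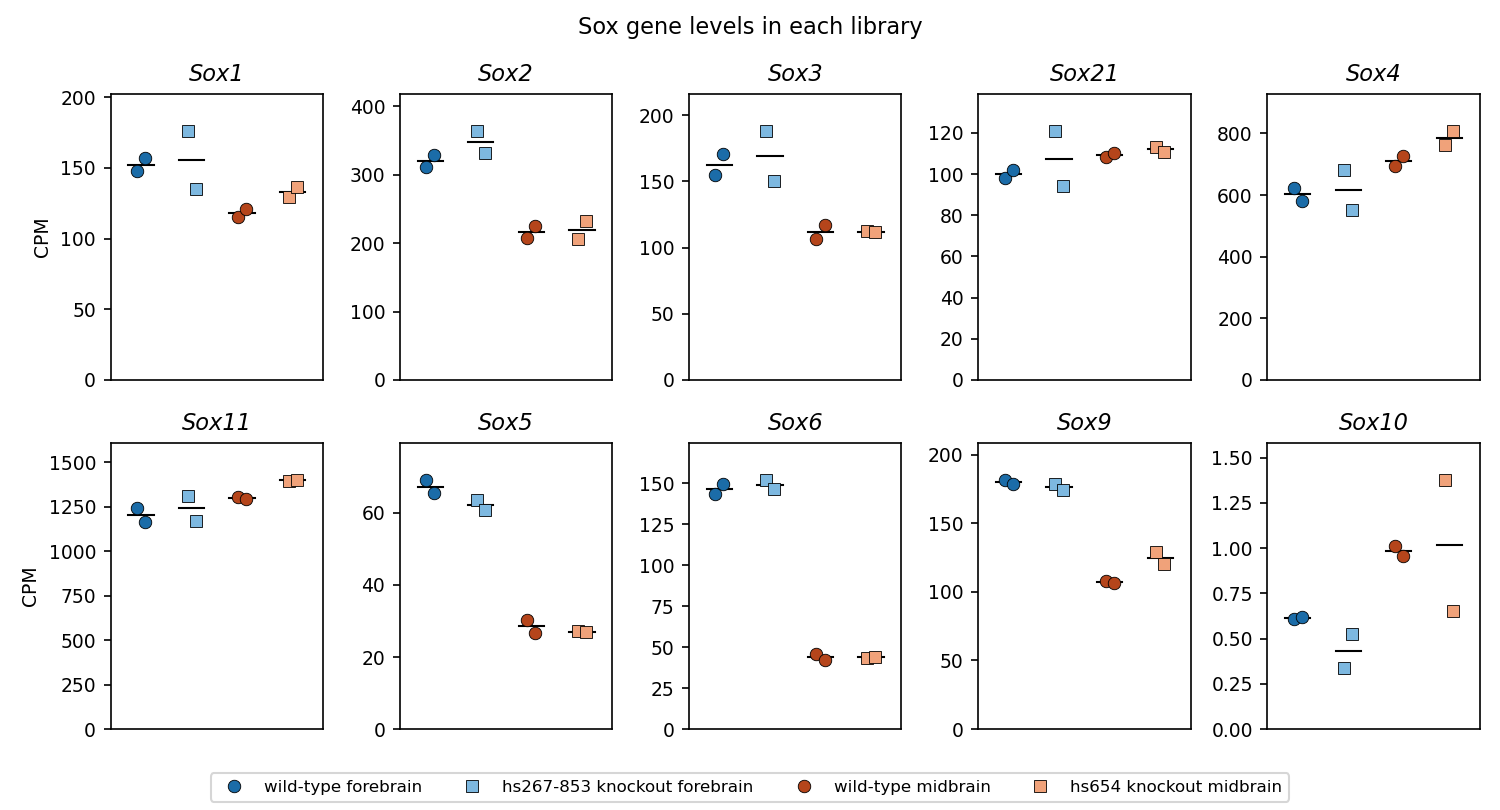
Level of each Sox gene (CPM, linear axes from 0, a separate scale per gene) in the 8 libraries; points are single pools and the bar is the mean of 2. Sox2, Sox3, Sox5, Sox6 and Sox9 lie higher in all 4 forebrain libraries than in any midbrain library. Sox4 and Sox10 lie lower in all of them, by a narrow gap, and the Sox1, Sox11 and Sox21 points of both tissues overlap. The share of all genes that separates in this way was not computed.

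Among the SoxB1 genes, Sox2, the factor that maintains neural stem cells, measured 311 and 329 CPM in wild-type forebrain and 207 and 225 CPM in wild-type midbrain. Both forebrain pools were above both midbrain pools, and the log2 difference was 0.57 (SE 0.0714, adjusted p = 5.91e-05 in edgeR). Sox3, an X-linked gene that overlaps Sox2 in function, measured 155 and 171 CPM in forebrain and 106 and 117 CPM in midbrain, a log2 difference of 0.54 (SE 0.0957, adjusted p = 0.00093 in edgeR). The same order was seen for Sox1, the SoxB1 gene that comes on as the neural plate forms, with a smaller gap. Sox1 measured 148 and 157 CPM in forebrain against 116 and 121 CPM in midbrain, a log2 difference of 0.37 (SE 0.0996, adjusted p = 0.0139 in edgeR). Its call was lost without forebrain wild-type replicate 2 (adjusted p = 0.0960) or midbrain wild-type replicate 1 (adjusted p = 0.101), with a log2 difference of 0.33 in both cases and adjusted p from 3.48e-06 to 0.101 over all alternatives.

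Xist, the RNA of the inactive X chromosome, varied widely between pools, which bears on Sox3 because Sox3 lies on that chromosome. In midbrain knockout replicate 2 Xist was at 0.765 CPM, and in the other midbrain libraries it was at 856, 1808 and 2326 CPM. Sox3 measured 111 CPM in the library with almost no Xist and 106, 112 and 117 CPM in the other 3. Of 5 sex-linked genes, 1 (Eif2s3y) was lower in wild-type forebrain than in wild-type midbrain, 0 were higher and 4 did not pass. The log2 difference was negative for 4 of these 5 genes, with a median of -2.05. Their summed level was 2969 and 2369 CPM in wild-type forebrain and 2412 and 1038 CPM in wild-type midbrain. This sum adds Xist to the Y-linked Eif2s3y, so it does not measure the sex of a pool. The part of the sex and the X chromosomes of the pooled embryos in the Sox3 values was not tested.

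Sox21, the SoxB2 factor that opposes SoxB1 proteins and favours differentiation, did not pass the test between the tissues. It measured 98.2 and 102 CPM in wild-type forebrain and 108 and 110 CPM in wild-type midbrain. The log2 difference was -0.12 with a 95% interval of -0.33 to 0.083 (adjusted p = 0.367 in edgeR), so a forebrain excess of the size seen for Sox2 lay outside the interval. Within a library, the ratio of Sox21 counts to Sox2 counts was 0.283 to 0.332 in the 4 forebrain libraries and 0.477 to 0.548 in the 4 midbrain libraries, with no overlap. The ratio of Sox1 to Sox2 also separated the tissues, at 0.406 to 0.484 in forebrain and 0.538 to 0.628 in midbrain. The ratio of Sox3 to Sox2 overlapped between them, at 0.452 to 0.519 in forebrain and 0.478 to 0.544 in midbrain. These ratios share the Sox2 count, which itself differed between the tissues. How often ratios of other gene pairs separate the tissues was not computed, here or for the ratios below.

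Sox11 and Sox4, the SoxC pair that switches on neuronal genes, had the highest counts of the 10 genes. Sox4 measured 625 and 582 CPM in wild-type forebrain and 695 and 726 CPM in wild-type midbrain, and both midbrain pools were above both forebrain pools. Its log2 difference was -0.24 (SE 0.0834, adjusted p = 0.0489 in edgeR), just inside the threshold. The call was lost in 6 of the 8 fits that each left out 1 library, namely those without a wild-type library of either tissue or without a midbrain knockout library, and the log2 difference then ranged from -0.29 to -0.18 with adjusted p up to 0.263 (from 0.000657 over all alternatives). Sox11 measured 1244 and 1162 CPM in forebrain and 1306 and 1293 CPM in midbrain, a log2 difference of -0.11 with a 95% interval of -0.24 to 0.019 (adjusted p = 0.189 in edgeR). Within a library the count ratio of Sox11 to Sox4 was 1.92 to 2.13 in forebrain and 1.73 to 1.88 in midbrain, without overlap.

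Neuronal markers moved in the same direction as Sox4 and by more. Of 10 neuronal genes and SoxC targets, 9 were lower in wild-type forebrain, 0 were higher and 1 did not pass, with a median log2 difference of -0.91, and their summed level was 1793 to 2397 CPM in the 4 forebrain libraries and 3817 to 4260 CPM in the 4 midbrain libraries. Nefl, Nefm and Gap43, genes of the axon, had log2 differences of -4.00, -3.10 and -1.81. Tubb3, the neuronal tubulin and a target of SoxC factors, measured 577 CPM ± 65.0 (SD, n = 2) in wild-type forebrain and 987 CPM ± 46.2 (SD, n = 2) in wild-type midbrain. The part of neuron content in the Sox4 and SoxB1 differences was not tested.

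The promoters of Sox1 and Sox2, higher in wild-type forebrain, and of Sox4 and Sox11, not higher there, are shown. Sox11 did not pass the test between the wild-type tissues and Sox4 was just inside the threshold, so no firm split in direction is meant. The windows of Sox5, Sox6 and Sox21 were searched but are not shown. RefSeq windows on GRCm38.p6, the assembly that mm10 names, matched 7 of the 10 genes, with no entry for Sox3, Sox9 and Sox10. The stretches below run 5′ to 3′ on the gene's strand from 150 bases before the annotated start to 30 bases after it. They lie at chr8:12395369-12395548, plus strand, at chr3:34649845-34650024, plus strand, at chr13:28953670-28953849, minus strand and at chr12:27342689-27342868, minus strand. Capitals mark matches, on either strand, to the CCAAT box (CCAAT), the TATA box (TATAAA), the octamer of POU factors (ATGCAAAT) or a SOX motif (CATTGT).
Sox1: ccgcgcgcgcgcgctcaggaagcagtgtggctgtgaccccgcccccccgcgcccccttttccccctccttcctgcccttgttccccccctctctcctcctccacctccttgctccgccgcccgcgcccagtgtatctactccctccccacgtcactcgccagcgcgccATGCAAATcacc
Sox2: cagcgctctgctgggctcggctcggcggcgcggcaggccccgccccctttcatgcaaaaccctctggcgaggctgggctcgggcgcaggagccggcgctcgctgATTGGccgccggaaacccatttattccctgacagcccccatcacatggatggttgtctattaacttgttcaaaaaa
Sox4: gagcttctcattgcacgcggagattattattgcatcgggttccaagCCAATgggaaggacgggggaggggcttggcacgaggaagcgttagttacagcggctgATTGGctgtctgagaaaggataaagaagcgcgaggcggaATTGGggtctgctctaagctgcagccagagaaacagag
Sox11: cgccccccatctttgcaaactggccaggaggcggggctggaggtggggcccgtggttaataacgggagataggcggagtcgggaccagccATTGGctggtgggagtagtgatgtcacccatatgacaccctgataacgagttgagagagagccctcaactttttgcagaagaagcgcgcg
The full windows, 250 bases before to 50 after the start, were searched in the same way, and 37.4% of all 32851 such windows held a CCAAT match, 13.6% a TATA match, 12.6% a SOX match and 1.74% an octamer match. Overlapping matches were counted separately. Sox4 had 4 CCAAT matches, of which the one at position -171 from the start lies outside the stretch shown and the others begin at -104, -47 and -8, Sox2 had 1 at -46 and Sox11 had 1 at -60. In the Sox1 window the octamer began at position 19 after the start, and a CCAAT match lay at -237, outside the stretch shown. The Sox21 window held none of these letters. The only Sox5 window, at chr6:143947057-143947356 on the minus strand, held a SOX match at -154 and no other. It lies inside the Sox5 span, 143828425 to 144782287, and away from its upstream end. Whether that start is used was not measured. Of the 6 windows listed for Sox6, at as many annotated starts, 3 held a CCAAT match, 2 a TATA match, 2 a SOX match and 0 an octamer, and which start is used was not measured.

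The SoxD genes had the largest differences of the 10. Sox6, known from dorsal forebrain progenitors and from certain cortical interneurons, measured 144 and 150 CPM in wild-type forebrain and 45.9 and 42.0 CPM in wild-type midbrain. The lowest of all 4 forebrain libraries was 3.13 times the highest of the 4 midbrain libraries. The log2 difference was 1.74 (SE 0.0711, adjusted p = 2.13e-09 in edgeR). Sox5, its partner in dimers and later a regulator of deep-layer cortical neurons, measured 69.1 and 65.5 CPM in forebrain and 30.4 and 26.7 CPM in midbrain, a log2 difference of 1.23 (SE 0.0913, adjusted p = 4.47e-07 in edgeR).

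Within each library the count ratio of Sox6 to Sox5 was 2.08 to 2.41 in forebrain and 1.51 to 1.63 in midbrain, so the tissues did not overlap. This ratio is between genes of different length and describes a shift between tissues, not a ratio of transcripts. In cartilage Sox5 and Sox6 work together with Sox9, and cartilage genes were therefore set beside them. Of 6 cartilage genes, 4 were tested: 0 were higher and 2 lower in wild-type forebrain, with a summed level of 280 to 367 CPM in forebrain and 286 to 355 CPM in midbrain, and Matn1 at 0 in every library. Col2a1, the main cartilage collagen and a target of Sox9, measured 268 CPM ± 0.149 (SD, n = 2) in wild-type forebrain and 270 CPM ± 37.7 (SD, n = 2) in wild-type midbrain. The part of cartilage in the Sox5, Sox6 and Sox9 differences was not tested.

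**Figure D2:**
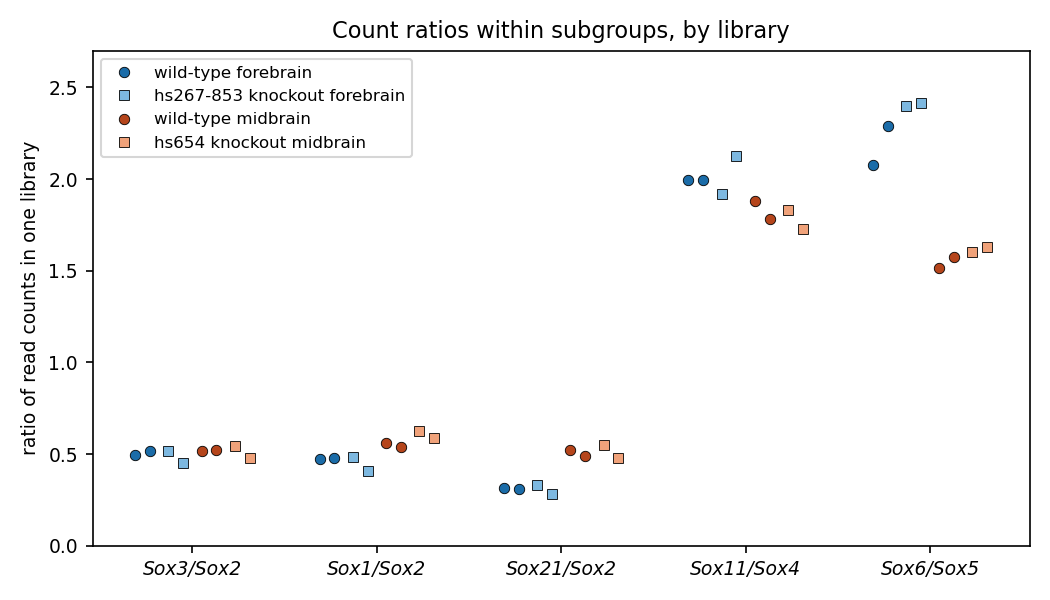
Ratio of the read counts of pairs of Sox genes within each of the 8 libraries (linear axis from 0, 1 point per pool). Sox21/Sox2 (0.283 to 0.332 in forebrain, 0.477 to 0.548 in midbrain) and Sox6/Sox5 (2.08 to 2.41 against 1.51 to 1.63) separate the tissues, as do Sox1/Sox2 and Sox11/Sox4, while Sox3/Sox2 does not. How often ratios of other gene pairs separate the tissues was not computed.

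Sox9, the SoxE factor of radial progenitors, measured 181 and 179 CPM in wild-type forebrain and 108 and 107 CPM in wild-type midbrain. Its replicates lay within 3 CPM of each other in both groups, and the log2 difference was 0.75 (SE 0.0605, adjusted p = 1.06e-06 in edgeR). Markers of cranial mesenchyme, which can also make Sox9, varied within the forebrain: their summed level over 8 genes was 2116 and 1678 CPM in the wild-type pools, 1204 and 1848 CPM in the knockout pools and, in midbrain, 1332 to 1880 CPM. Of these 8 genes, 3 were higher and 0 lower in wild-type forebrain. In the 4 forebrain libraries Sox9 measured 174 to 181 CPM. The part of mesenchyme in the Sox9 values was not tested.

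Sox10, the neural crest and Schwann cell factor, was close to absent. It had 9 and 8 counts in wild-type forebrain (0.611 and 0.619 CPM) and 16 and 12 counts in wild-type midbrain (1.01 and 0.958 CPM). It passed the filter through the midbrain libraries, and its log2 difference of -0.67 had a 95% interval of -1.88 to 0.53 (adjusted p = 0.400 in edgeR), so no difference was detectable at this depth. Of 12 neural crest and Schwann genes 10 were tested, and 3 were higher and 6 lower in wild-type forebrain, with a summed level of 148 to 170 CPM in forebrain and 291 to 324 CPM in midbrain. The crest specifier Foxd3 was under the filter, at no more than 0.458 CPM in any library.

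The same tissue question was asked in the knockout libraries, none of which enters the wild-type means, although all 8 libraries share one estimate of the spread and the deletion differs between the tissues there. Again 7 of 10 Sox genes passed, 5 higher and 2 lower in forebrain, against 29.4% of all genes tested in edgeR's quasi-likelihood test (14.6% higher and 14.8% lower). Sox6 was 3.41-fold, Sox5 2.29-fold, Sox2 1.59-fold, Sox3 1.51-fold and Sox9 1.42-fold higher in forebrain, and Sox4 was 1.27-fold higher in midbrain. Sox4 lost its call without midbrain knockout replicate 2, where the log2 difference was -0.30 (adjusted p = 0.0774 in edgeR) against -0.35 with all libraries. It was -0.51 without forebrain knockout replicate 1 and -0.20 without forebrain knockout replicate 2, and passed in both fits. The 2 tissues did not overlap for 8 genes, 5 higher and 3 lower in forebrain, against 64.4% of all genes tested (33.4% higher and 31% lower). Sox2, Sox3, Sox4, Sox5, Sox6 and Sox9 were called in the same direction in both genotypes.

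Sox1 and Sox11 were on different sides of the threshold in the 2 genotypes. Sox1 measured 176 and 135 CPM in knockout forebrain and 130 and 137 CPM in knockout midbrain, and these groups overlapped. Its log2 difference was 0.23 (SE 0.0998, adjusted p = 0.109 in edgeR), and it was 0.023 without forebrain knockout replicate 1 and 0.41 without forebrain knockout replicate 2, where it passed (adjusted p = 0.000467 in edgeR). Sox11 passed with a log2 difference of -0.17 (SE 0.0600, adjusted p = 0.0481 in edgeR), and over the alternatives its adjusted p ran from 0.00463 to 0.298. It passed in 2 of 8 fits that left out 1 library, and it was -0.25 without forebrain knockout replicate 1 and -0.090 without forebrain knockout replicate 2.

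Sox21 did not pass in the knockout libraries either. It measured 121 and 94.1 CPM in knockout forebrain and 113 and 111 CPM in knockout midbrain, with a log2 difference of -0.058 (adjusted p = 0.699 in edgeR). Without forebrain knockout replicate 1 it was -0.25 and passed (adjusted p = 0.0229), and without forebrain knockout replicate 2 it was 0.11. Sox10 had a log2 difference of -1.27 with a 95% interval of -2.55 to 0.016 (adjusted p = 0.131 in edgeR), from 6 and 8 counts in forebrain and 16 and 6 counts in midbrain.

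**Figure D3:**
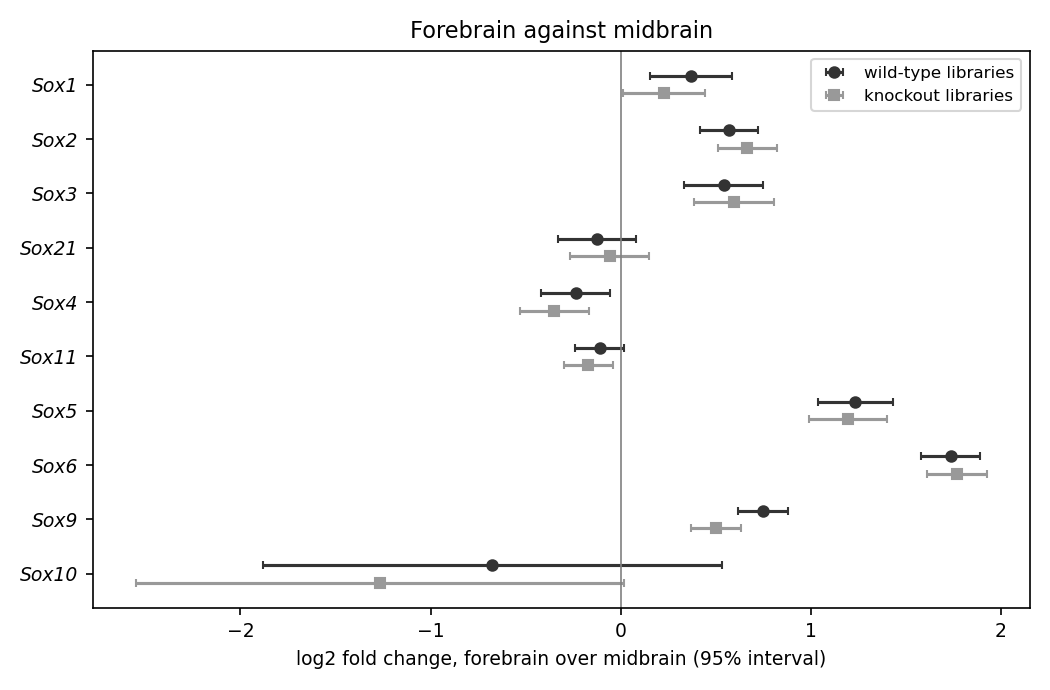
Log2 fold change of each Sox gene, forebrain over midbrain, in wild-type and in knockout libraries, with 95% intervals from edgeR. Sox6 (1.74 and 1.77) and Sox5 (1.23 and 1.20) lie farthest above 0, and the intervals of Sox21 and Sox10 include 0 in both genotypes.

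Levels can be set side by side per length for the 6 genes that consist of a single exon, Sox1, Sox2, Sox3, Sox4, Sox11 and Sox21, using the RefSeq span as length. In wild-type forebrain Sox11 had 142 ± 6.92, Sox2 130 ± 5.06, Sox4 126 ± 6.27, Sox3 78.8 ± 5.45, Sox1 37.7 ± 1.60 and Sox21 26.4 ± 0.736 CPM per kb (SD, n = 2). The pools of Sox2 and Sox4 overlapped, and the other neighbours in this order did not. In wild-type midbrain the order was Sox11 with 154 ± 1.11, Sox4 with 149 ± 4.56, Sox2 with 87.4 ± 5.05, Sox3 with 54.1 ± 3.71, Sox1 with 29.3 ± 0.921 and Sox21 with 28.7 ± 0.341 CPM per kb (SD, n = 2). Here Sox1 and Sox21 overlapped. Sox2 thus overlapped Sox4 in forebrain and was below both SoxC genes in midbrain. The annotation used for counting is not given in the sources used here, so the lengths may differ from those behind the counts.

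**Figure D4:**
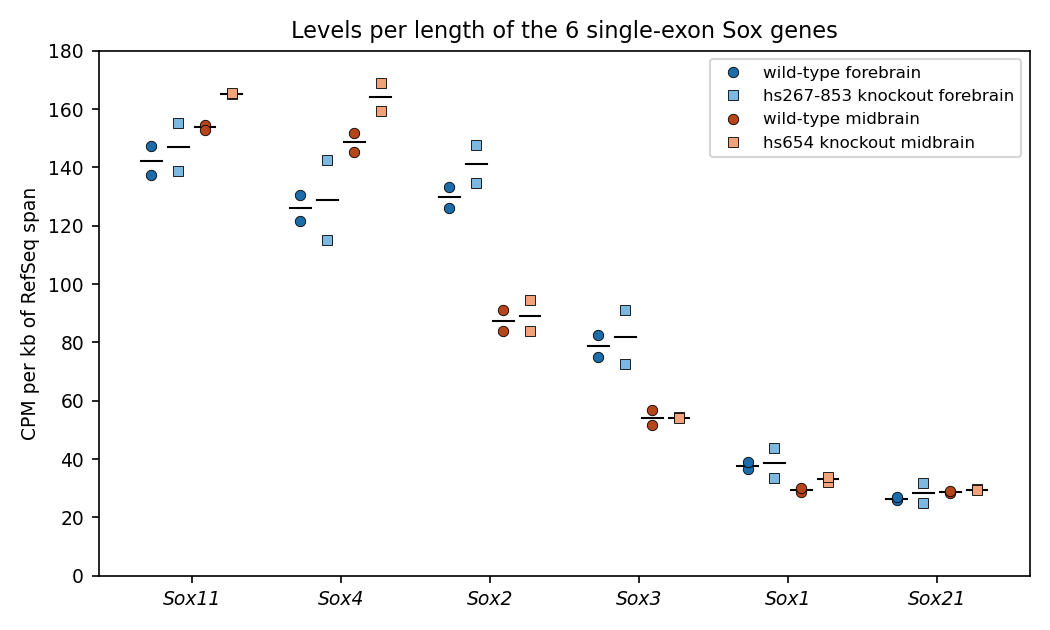
CPM per kb of RefSeq span for the 6 single-exon Sox genes in each library (linear axis from 0; points are pools, bars are means of 2). Sox2 lies between 126 and 148 in forebrain and between 83.7 and 94.4 in midbrain, and Sox11 and Sox4 are at least 145 in every midbrain library.

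In forebrain no Sox gene passed the test between the hs267-853 knockout and wild type. None of the 10 was called (0 by edgeR, DESeq2 or limma-voom), against 0.013% of all genes tested in edgeR, and 0 had an unadjusted p under 0.05, against 4.78%. With all libraries, the highest log2 fold change among the 9 genes other than Sox10 was that of Sox2, from 311 and 329 CPM in wild type to 364 and 332 CPM in the knockout, a log2 fold change of 0.12 with a 95% interval of -0.029 to 0.28. It was 0.056 without knockout replicate 1 and 0.19 without knockout replicate 2, where Sox21 was higher at 0.27. The lowest was that of Sox5, from 69.1 and 65.5 to 63.4 and 60.7 CPM, a log2 fold change of -0.12 with an interval of -0.30 to 0.069. Over these 9 genes the intervals lay between -0.30 and 0.31, so fold changes above 1.24 in either direction were outside all of them. The median log2 fold change of all 10 was 0.031, and over all genes it was 0.0078.

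The 2 knockout forebrain pools did not overlap the wild-type pools for 3 of 10 Sox genes (Sox2 higher, Sox5 and Sox10 lower), against 31.1% of all genes tested (17.2% higher and 13.9% lower). Sox1, Sox3, Sox4 and Sox21 were above both wild-type pools in knockout replicate 1 and below both in knockout replicate 2, and Sox11 was above both in replicate 1 and between them in replicate 2. Sox11 measured 1310 and 1172 CPM in the knockout and Sox4 measured 682 and 551 CPM. Neuronal markers summed to 2397 and 1793 CPM in the same 2 pools and to 2160 and 1921 CPM in wild type. Neural progenitor genes summed to 4814 and 4348 CPM in the knockout pools and to 4324 and 4359 CPM in wild type. Cranial mesenchyme genes went the other way between the knockout pools, at 1204 and 1848 CPM, with 2116 and 1678 CPM in wild type. Whether any of these lists accounts for the spread was not tested. Without replicate 1 the log2 fold changes of Sox1, Sox3, Sox4, Sox11 and Sox21 were negative, and without replicate 2 they were positive.

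In midbrain the hs654 knockout gave no call among the 10 Sox genes either (0 by edgeR, DESeq2 or limma-voom), against 0% of all genes tested, and 1 gene had an unadjusted p under 0.05, against 3.96% of all genes tested. That gene was Sox9, which had 108 and 107 CPM in wild-type pools against 129 and 120 CPM in knockout pools. Both knockout pools were above both wild-type pools, the log2 fold change was 0.22 (SE 0.0619), and the 95% interval was 0.084 to 0.35. In edgeR its p was 0.00382 before adjustment and 0.992 after it, and over the alternatives the log2 fold change was 0.18 to 0.27 with adjusted p from 0.436 to 1.00. Cranial mesenchyme genes had positive log2 fold changes in this comparison for 8 of 8, with a median of 0.17, and 0 of them passed. Their summed level was 1332 and 1880 CPM in wild type against 1716 and 1839 CPM in knockout midbrain, and their part in the Sox9 value was not tested.

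Sox1, Sox4, Sox11 and Sox21 were also higher in both knockout midbrain pools than in both wild-type pools, which makes 5 of 10 with Sox9, and no Sox gene was lower in both, against 36.7% of all genes tested that separated (17.9% higher and 18.8% lower). None of the 5 passed the test. Sox4 went from 695 and 726 CPM in wild type to 763 and 808 CPM with the deletion (log2 fold change 0.14, interval -0.036 to 0.32), and Sox11 measured 1306 and 1293 against 1395 and 1399 CPM (0.10, interval -0.025 to 0.23). Sox2, Sox3 and Sox6 had log2 fold changes of 0.026, 0.0039 and -0.0091. Over the 9 genes other than Sox10 the intervals lay between -0.29 and 0.39, so fold changes above 1.31 were outside all of them, and the median log2 fold change of all 10 was 0.058 against -0.00092 over all genes. Neuronal markers summed to 3984 and 3817 CPM without and 4127 and 4260 CPM with the deletion, and erythroid markers to 6628 and 3534 against 3727 and 3289 CPM. The part of either in the Sox values was not tested.

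**Figure D5:**
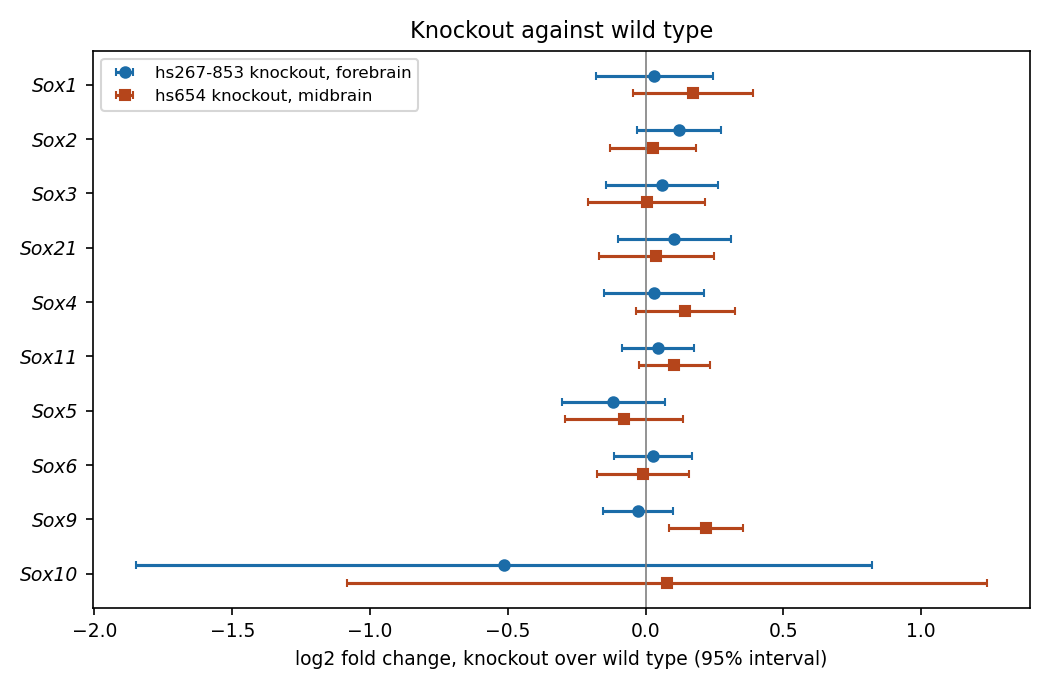
Log2 fold change of each Sox gene, knockout over wild type, in forebrain (hs267-853) and midbrain (hs654), with 95% intervals from edgeR. Apart from Sox10 all values lie between -0.12 and 0.22, and the interval of Sox9 in midbrain (0.084 to 0.35) is the one that does not include 0.

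The difference between the tissue contrasts of knockout and wild type, which equals the forebrain knockout effect minus the midbrain one, was tested directly. None of the 10 Sox genes passed in edgeR (0 also by DESeq2 and limma-voom, 1 at an unadjusted p under 0.05), against 0.0065% of all genes tested that passed and 4.02% with an unadjusted p under 0.05. Sox9 had the smallest p, with a log2 difference of -0.25 (SE 0.0855), and in edgeR its p was 0.0132 before adjustment and 0.996 after it. Its forebrain excess was 1.68-fold in wild type and 1.42-fold in the knockout libraries, and the interval of the difference ran from -0.43 to -0.061. For the same difference, 8 of 8 cranial mesenchyme genes were negative, with a median of -0.50, and 0 passed.

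Of the Sox genes outside the 10, those of the SoxC, SoxD and SoxE groups did not all follow their group. Sox13, the third SoxD gene, was lower in wild-type forebrain, at 40.7 CPM ± 5.82 (SD, n = 2) against 117 CPM ± 1.43 (SD, n = 2), which is -1.53 on the log2 scale, opposite to Sox5 and Sox6. Sox12, the third SoxC gene, was higher in forebrain by 0.46, opposite to Sox4, and Sox8, the third SoxE gene, was higher by 1.40. The SoxB2 gene Sox14, which marks certain midbrain and diencephalic neurons, measured 12.2 and 10.7 CPM in wild-type midbrain and had 1 and 5 counts in wild-type forebrain. Of 8 such genes tested, 3 were higher and 2 lower in wild-type forebrain and 3 did not pass, and in both knockout comparisons 0 passed. The endothelial SoxF genes Sox7 and Sox17 did not pass, and Sox18 was higher by 0.56 on the log2 scale (adjusted p = 0.0424 in edgeR).

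Genes that work with SoxB1 proteins did not share one direction. Of 6 partner genes of Sox2, 2 were higher and 4 lower in wild-type forebrain, with a median log2 difference of -0.98. Pax6, which binds DNA together with Sox2, was higher by 1.18, and the POU factors Pou3f2 and Pou3f4 were lower by 2.09 and 2.25 (log2 differences of -2.09 and -2.25). Pou3f2 measured 70.8 and 71.6 CPM in forebrain against 318 and 286 CPM in midbrain, and these groups were far apart. In both knockout comparisons 0 of the 6 passed.

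Of 11 neural progenitor genes, 3 were higher and 5 lower in wild-type forebrain and 3 did not pass, with a median log2 difference of -0.24. The part of progenitor content in the SoxB1 differences was not tested. Id4, an inhibitor of proneural factors, was higher by 2.27, and Fabp7, a fatty acid binding protein of radial glia, was lower by 1.02 (log2 difference -1.02). The summed level of the 11 genes was 4324 to 4814 CPM in forebrain and 4692 to 4770 CPM in midbrain. Of 7 ventral progenitor genes, 1 was higher and 5 lower in wild-type forebrain, among them the floor plate gene Foxa2, with 0 CPM in every forebrain library and 21.1 CPM in wild-type midbrain. Of 7 endothelial genes 2 were higher and 0 lower, of 8 erythroid genes 0 passed, and of 5 macrophage genes 0 were higher and 3 lower. In both knockout comparisons 0 genes of any of these lists passed in edgeR.

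Some of these genes lie within or across other transcripts. In RefSeq on GRCm38.p6, Sox2 (chromosome 3, 34649995 to 34652461) lies inside the span of the long non-coding RNA gene Sox2ot, and Sox1 (chromosome 8, 12395519 to 12399555) lies inside Sox1ot. Sox1ot was higher in wild-type forebrain, at 23.4 CPM ± 3.10 (SD, n = 2) against 8.28 CPM ± 0.261 (SD, n = 2), which is 2.83-fold (adjusted p = 0.000231 in edgeR). Sox2ot had a log2 difference of -0.093 between the wild-type tissues (adjusted p = 0.734 in edgeR), while Sox2 itself was higher in forebrain. The strand setting and the rule for reads in shared sequence are not given in the sources used here. The counts keep a separate class of ambiguous reads, 0.431% to 0.488% per library. Whether all reads that fit both a gene and its overlapping transcript fell in it is therefore not known. Of the transcripts that overlap Sox5 and Sox6, those in the count tables were near 0. Sox5os3 had at most 1 count and Sox6os at most 12 in a library. Others, among them Sox5os4, Gm46405 across Sox4 and Gm4675 across Sox21, have no row in the count tables and were not measured.

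Likeness of pattern was measured as the root mean square difference of log2 CPM, each gene centred on its own mean, over the 8 libraries and 11886 other genes of at least 5 CPM. Sox2 and Sox3 were each other's nearest among the 10 genes (0.0787), as were Sox11 and Sox21 (0.0745) and, at a larger distance, Sox5 and Sox6 (0.277). The values were not scaled to equal spread, so this distance also reflects the size of a difference. Sox5 and Sox6 were both higher in wild-type forebrain, by 1.23 and 1.74 on the log2 scale. Over all genes the nearest to Sox6 were Cntnap2 (0.0759) and Nr2e1 (0.0897), and the nearest to Sox2 was Ung (0.0375). For Sox9 they were Ogfrl1 (0.0456) and Ttyh1 (0.0651). The 8 points of each pattern fall in 4 groups and share their libraries, so this is a description with no test.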

How the data were processed

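Poly(A) RNA of pooled embryonic forebrain and midbrain was measured in 8 libraries, which the titles assign to a tissue, a genotype and a replicate. The authors deposited raw counts per gene symbol. The submitters' processing notes name STAR, HTSeq, DESeq2 and the build mm10, with no versions or settings, and annotation and strand setting are not given in the sources used here. Rows that name no gene were kept out. Among counts in genes, outside any feature or in ambiguous places, genes held 40.7% to 44.1%, places outside any feature 55.4% to 58.9% and ambiguous ones 0.431% to 0.488%.

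The counts were fitted with edgeR 4.0.16 in R 4.3.3 (filterByExpr, TMM factors 0.978 to 1.01, quasi-likelihood test, 1 mean per group, all 8 libraries, 15383 genes, two-sided). A threshold of 0.05 on Benjamini-Hochberg adjusted p was used. The F statistic gave the standard errors and 95% intervals. The code was tested on simulated counts. As alternatives, DESeq2 1.42.0 and limma-voom (limma 3.58.1) were run, and edgeR was rerun with RLE or upper-quartile scaling, with the filter dropped or set to mean counts of 50 or more, on the compared groups alone, with a replicate block, and without each library in turn. All 4 replicate pairs differed by more than counting noise, with a chi-square of 3.75 to 7.74 per degree of freedom.

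The 10 genes and all lists were chosen with earlier results of these data known. Named were the 10 genes, overlapping genes, other Sox genes of at least 1 CPM, the genes nearest in pattern, and from each list up to 3 genes with the smallest p, of which only some are printed. Tubb3, Col2a1, Foxd3, Matn1, Xist, Fgf8 and Meis2 were named after their values were seen.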

Additional observations from a re-analysis of the deposited data

How the results depend on the processing

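The 50 log2 fold changes of the 10 Sox genes over the 5 comparisons gave 383 values under the alternatives that kept all libraries or all compared ones, of which 376 kept their direction and their side of the threshold. The number of Sox genes called stayed at 7 in the wild-type tissue comparison under all of these, was 6 to 8 in the knockout tissue comparison and 0 in the others. With each library left out in turn, it was 5 to 7 and 5 to 8 in the tissue comparisons and 0 in the others. Without a filter on low counts Sox1 passed in the knockout tissue comparison (log2 difference 0.22), and with only the compared groups Sox11 did not (-0.18). Sox3 in the midbrain knockout comparison was -0.0018 with upper-quartile scaling. Sox6 there was 0.0010 with RLE scaling and in DESeq2, 0.00089 without a filter and 0.0027 with a mean of at least 50 counts. These values are close to 0, and the cause was not tested.

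Of 400 values with 1 library left out, 31 changed sign, 15 lost and 2 gained the call, and no value that was called changed sign. The ranges of log2 fold change for the genes that changed sign were: in the difference between contrasts Sox1 -0.35 to 0.038, Sox10 -0.99 to 0.050, Sox11 -0.14 to 0.019, Sox2 -0.0089 to 0.19, Sox21 -0.13 to 0.23, Sox3 -0.12 to 0.21, Sox4 -0.28 to 0.033, Sox5 -0.14 to 0.049, Sox6 -0.036 to 0.10; in the forebrain knockout comparison Sox1 -0.17 to 0.21, Sox11 -0.038 to 0.12, Sox21 -0.090 to 0.27, Sox3 -0.11 to 0.21, Sox4 -0.13 to 0.18, Sox6 -0.0037 to 0.056; in the midbrain knockout comparison Sox10 -0.57 to 0.48, Sox2 -0.062 to 0.12, Sox3 -0.063 to 0.074, Sox5 -0.16 to 0.025, Sox6 -0.070 to 0.062; in the knockout tissue comparison Sox21 -0.25 to 0.11.

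Over all genes tested, the forebrain knockout comparison called 2 genes, but 161 without a filter, 13 in DESeq2 and 1 in limma-voom or with only the compared groups. The midbrain one called 0, but 22 without a filter and 1 with only the compared groups, and the difference between contrasts called 1, but 111 without a filter and 4 in DESeq2. With each library left out these counts were 1 to 209, 0 to 8 and 0 to 64. The wild-type tissue comparison called 4548 genes (2816 to 5285) and the knockout one 4523 (2810 to 4358). The replicate block left the Sox calls at 7, 7, 0, 0 and 0. Deviations of same-numbered libraries correlated at -0.025 to 0.043, so no common deviation by replicate number was seen. With 2 pools a group this cannot show whether same-numbered pools shared embryos or litters. Scaling moved the median of all genes by at most 0.015. Sox10, with 6 to 16 counts a library, is limited by depth, and 2 pools a group limit the other genes.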
